A study of Drosophila melanogaster with 30 samples.

Results

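The comparison is between the posterior midguts of female flies kept on a high-cholesterol diet and those of flies kept on a lipid-depleted diet. Its members were chosen by their labels, as the 3 posterior libraries of the high-cholesterol diet and the 3 of the lipid-depleted diet, which are 6 of the 30 libraries of the series. The other 24 libraries hold the anterior midguts of the same diets, both regions on a control diet, and both regions of the mutant strains Hr96[1] and Hr96[2x]. All 6 libraries came from the strain y[1]w[1], which carries marker mutations in yellow and white and is called wild type by the submitters. The animals were mated females aged 10 to 12 days, kept with males at 25 °C, and moved as pupae to their diet. The high-cholesterol diet held 0.2% cholesterol, which the submitters give as 4 times the control level, and the labels do not describe what the lipid-depleted and control diets were made of. Each library pooled 30 to 50 dissected posterior regions (subregions p1 to p4) and was made from poly(A) RNA with a kit that does not mark strand. The p-values come from a fit of all 30 libraries as 10 group means, so the spread behind them is pooled over all these groups. The labels do not say whether the 3 libraries of a group came from separate cultures. The p-values therefore reflect only how much the libraries of this series varied, and some of that may be technical.

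Flies cannot make sterols and take them from food. In the midgut, lipases free sterols and fatty acids from their esters, Niemann-Pick type C (NPC) proteins move the sterols into and within enterocytes, and acyltransferases esterify them again for storage in lipid droplets. Enterocytes also secrete proteases, oxidise fatty acids, and are renewed from intestinal stem cells, whose daughters are directed by Notch signalling and whose division is driven by the epidermal growth factor receptor (EGFR), JAK/STAT and insulin pathways. The nuclear receptor Hr96 is known in flies as a regulator of midgut lipid and cholesterol genes.

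Values are FPKM as the authors deposited them, rescaled per library by the median of ratios and given for replicates 1, 2 and 3 in that order. FPKM holds no read totals, so the depth behind a value is unknown here. The 6 libraries listed 11336 to 13355 genes above 0, with the highest number in high-cholesterol replicate 3, and their 10 most abundant genes held 12.3% to 14% of all FPKM in the high-cholesterol libraries and 13.5% to 17.3% in the lipid-depleted ones. High-cholesterol replicate 1 stood apart from its group. Over the 8335 genes tested its root-mean-square log2 distance to replicates 2 and 3 was 0.786 and 0.808, which is as large as its distance of 0.782 to lipid-depleted replicate 1, whereas high-cholesterol replicates 2 and 3 were 0.618 apart. On the second principal component of the posterior libraries of the 3 diets (17.7% of the variance) it lay at 21.6, among the control libraries at 17.7 to 22.2, with the other high-cholesterol libraries at -24.0 and -34.8. Lipid-depleted replicate 1 also lay apart, at a distance of 0.759 and 0.651 from replicates 2 and 3, which were 0.539 apart. On the second component it was at 6.42, and lipid-depleted replicates 2 and 3 were at -16.0 and -12.4. On the first component (33.8%) the high-cholesterol libraries lay at 19.0 to 33.8, the lipid-depleted libraries at -39.2 to -26.7 and the control libraries at -11.4 to 32.8. The numbers of calls without high-cholesterol replicate 1 are given beside those that it moved by more than 1.5 times.

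The label posterior midgut was met by its markers. The posterior homeobox gene cad had 55.2, 43.7 and 46.4 rescaled FPKM in high-cholesterol and 23.8, 24.4 and 28.6 in lipid-depleted posterior libraries, against 0.206, 0.0874 and 0.0832 and 0.0164, 3.84 and 3.35 in the anterior libraries of the same diets. The summed level of 7 enterocyte markers was 3348 to 4038 on high cholesterol and 3111 to 3909 on the lipid-depleted diet. Of 2 hindgut markers, byn was at 0.0613, 0 and 0.0296 on high cholesterol and 0.404, 0.580 and 0.704 on the lipid-depleted diet, without overlap, and bowl ran the other way, at 7.57, 6.43 and 7.63 and 1.55, 2.37 and 3.07. The germline gene vas stayed at or under 0.187 and the hemocyte gene Hml at or under 0.137 in all 6 libraries.

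A gene was called where the limma adjusted p for the difference, high cholesterol minus lipid-depleted on the log2(rescaled FPKM + 1) scale, was under 0.05. Of the 8335 genes tested, 767 were called, which is 9.2%, and 458 of these differed by at least log2 1. In 461 of them (5.53% of the genes tested) the level was higher on high cholesterol and in 306 (3.67%) it was lower, and the median difference over all genes was 0.03. The values of the 3 libraries of each diet did not overlap in 756 of the 767 called genes, against 27.2% of all genes tested. The calls were made on the same libraries, so this lack of overlap is no separate support for them. With 3 libraries against 3 an exact permutation test of a single gene cannot give a p under 0.1. Calls rest on the variance shared across genes and across the 10 groups of the series. The split between directions depended on the scaling. With FPKM as deposited, that is without rescaling, which shifted the median of all genes to -0.31, the calls were 240 higher and 660 lower, and with quantile normalization they were 392 higher and 437 lower. Without high-cholesterol replicate 1 there were 883 calls (550 higher, 333 lower), and without high-cholesterol replicates 2 or 3 there were 347 or 414. Without lipid-depleted replicates 2 or 3 there were 445 or 407. With only the 6 compared libraries in the fit there were 546 calls (327 higher, 219 lower), and with only the posterior libraries 598. Of the 102 called genes that are named here, 70 and 79 stayed called in these 2 fits.

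**Figure D1:**
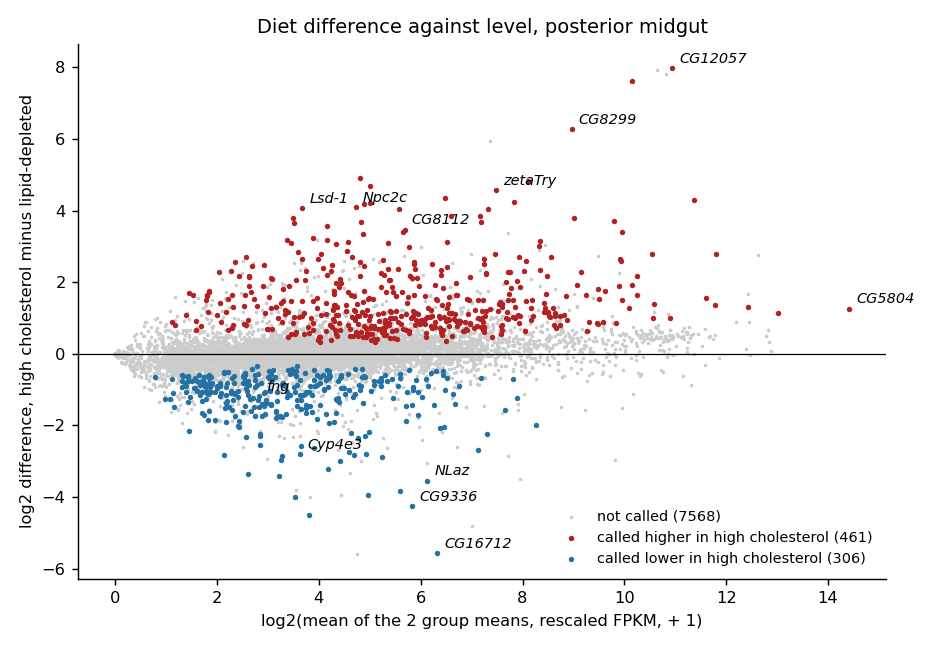
Log2 difference between diets, high cholesterol minus lipid-depleted, for each of the 8335 genes tested (vertical axis) against log2 of the mean level of the 2 diets plus 1 (horizontal axis), in the posterior midgut. Red points are the 461 genes called higher on high cholesterol, blue points the 306 called lower and grey points those not called. With FPKM as deposited the calls were 240 higher and 660 lower.

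The 14 largest rises without overlap between diets included 4 peptidase genes, 3 genes of lipid handling and 2 alkaline phosphatases. CG12057 (dm6, X, 9191657 to 9192548) had 1251, 3494 and 7003 rescaled FPKM on high cholesterol, against 2.94, 24.7 and 18.0 on the lipid-depleted diet (log2 difference 7.98 ± 0.96, SE, adjusted p = 1.74e-05). All 3 high-cholesterol libraries were far above every lipid-depleted library. Replicate 1 was the lowest of its group on both diets, and the difference was 8.64 without high-cholesterol replicate 1 and 7.15 without lipid-depleted replicate 1. CG8299, a predicted serine protease on 2R (15940610 to 15941483), had 1170.0, 1039 and 738 on high cholesterol and 29.1, 7.88 and 6.24 on the lipid-depleted diet (6.28 ± 0.63, SE, adjusted p = 2.56e-06), or 6.91 without lipid-depleted replicate 1. The trypsin gene zetaTry, also on 2R (11339186 to 11340132), had 380.4, 363 and 281 against 16.4, 13.2 and 10.9 (4.57 ± 0.50, SE, adjusted p = 5.30e-06). In these genes the 3 libraries of each diet lay close together relative to the gap between diets. Cyp4d1, a cytochrome P450 of the Cyp4 family, had 30.2, 68.5 and 62.3 on high cholesterol and 0.643, 0.665 and 0.808 on the lipid-depleted diet (4.92 ± 0.57, SE, adjusted p = 1.19e-05), where all 3 libraries were under 1. The predicted serine protease CG11911 was among the most abundant genes that rose, at 2137, 6212 and 6724 against 165, 246 and 285 (4.30 ± 0.79, SE, adjusted p = 0.00106). CG8745 had 29.3, 79.0 and 75.0 against 0.450, 1.59 and 1.78 (4.70 ± 0.59, SE, adjusted p = 2.38e-05), with the lowest library of each diet again in replicate 1.

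Other large rises varied more within a diet. The neighbouring alkaline phosphatase genes CG10592 and CG5150 on 3L had 59.2, 749 and 798 and 28.7, 635 and 647 rescaled FPKM on high cholesterol, against 2.2, 22.6 and 19.9 and 2.14, 23.7 and 23.0 on the lipid-depleted diet, with log2 differences of 4.83 ± 0.87 and 4.23 ± 0.93 (SE). Replicate 1 was the lowest library of both genes on both diets. Without high-cholesterol replicate 1 the differences were 6.06 and 5.71, without lipid-depleted replicate 1 they were 3.89 and 3.24, and without high-cholesterol replicate 2 or 3 they were 4.19 to 4.24 and 3.48 to 3.50. The call of CG5150 was lost without high-cholesterol replicate 2 (adjusted p = 0.0514). With only the 6 compared libraries in the fit, CG10592 and CG5150 were not called (adjusted p = 0.0886 and 0.164). CG32284 (4.06 ± 0.70), CG11162 (4.20 ± 0.55) and CG9416 (4.20 ± 0.54) kept their calls without any 1 library. They completed the 14 largest rises together with the lipid genes CG6296, Npc2c and Lsd-1 described below. CG9416 overlaps CG10051 on the other strand, so their reads cannot be told apart in these libraries.

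The largest falls included secreted inhibitors and a lipocalin. CG16712, which encodes a small Kunitz-type protease inhibitor on 2L (3696218 to 3696658), had 5.0, 2.30 and 0.646 rescaled FPKM on high cholesterol and 181, 181 and 103 on the lipid-depleted diet (-5.56 ± 0.68, SE, adjusted p = 1.77e-05). Its neighbours CG16713 and CG3604, of the same family, were at 0, 0 and 0 and 0, 0.111 and 0.0821 on high cholesterol, against 13.3, 50.1 and 14.8 and 13.6, 8.84 and 7.90. CG16713 was listed at 0 in all 3 high-cholesterol libraries. CG3604 was not called with only the posterior libraries in the fit (adjusted p = 0.0711). Lack of overlap between diets was a condition for entering the 14 largest falls. NLaz (neural Lazarillo), a lipid-binding secreted lipocalin on 2L (1359837 to 1361821), had 8.83, 10.1 and 11.0 on high cholesterol and 143, 135 and 105 on the lipid-depleted diet (-3.55 ± 0.52, SE, adjusted p = 1.19e-04), with little spread in either group. CG9336, a predicted membrane-anchored Ly6-family protein, had 8.16, 3.27 and 2.80 against 57.1, 142 and 124 (-4.26 ± 0.52, SE, adjusted p = 1.77e-05). CG5070 and CG13285 were at 0.418, 0.0643 and 0.296 and 2.68, 0 and 0.0537 on high cholesterol, against 36.0, 14.2 and 12.9 and 17.7, 15.3 and 14.5 (-3.99 and -3.42, or -4.03 for CG13285 without high-cholesterol replicate 1). The portabella gene prt, a vesicular transporter, had 0.396, 13.5 and 26.2 against 55.8, 67.3 and 57.1 (-2.89 ± 0.63, SE, adjusted p = 0.00483), and the difference was -1.62 without high-cholesterol replicate 1, its lowest library, and -3.76 without replicate 3, the highest of that diet. The prt call was lost with only the 6 compared libraries (adjusted p = 0.189) or only the posterior libraries (0.0511) in the fit.

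The other 6 of the 14 largest falls were less even. CG42821 was listed at 0 in all high-cholesterol libraries, against 47.1, 2.73 and 1.62 on the lipid-depleted diet, and without lipid-depleted replicate 1 its difference was -1.65 and without replicate 3 -3.74, rather than -2.96. It was not called with only the 6 compared libraries in the fit (adjusted p = 0.184). CG6337 and CG33258 had 43.7, 2.48 and 0.148 and 22.0, 0.537 and 0.164 on high cholesterol, against 73.5, 94.2 and 71.3 and 40.6, 70.2 and 48.5. Replicate 1 was far the highest high-cholesterol library of both genes. The differences were -3.83 and -3.93 with all libraries, -5.32 and -5.30 without high-cholesterol replicate 1, and -2.68 and -3.15 without replicate 3. CG33258, CG4269 (-3.20) and CG43175 (-2.84) lost their calls without any 1 of lipid-depleted replicates 2 and 3 and high-cholesterol replicates 2 and 3 (adjusted p up to 0.145, 0.111 and 0.121). CG6337 lost its call without high-cholesterol replicate 2 or 3 (up to 0.0797), and CG43074 (-2.98) without lipid-depleted replicate 2 or 3 or high-cholesterol replicate 2 (up to 0.0581). CG16713 lost its call without any 1 library but lipid-depleted replicate 1 (up to 0.156), and without lipid-depleted replicate 2 its difference was -3.91 instead of -4.50. Without lipid-depleted replicate 1 that of CG43175 was -3.63.

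**Figure D2:**
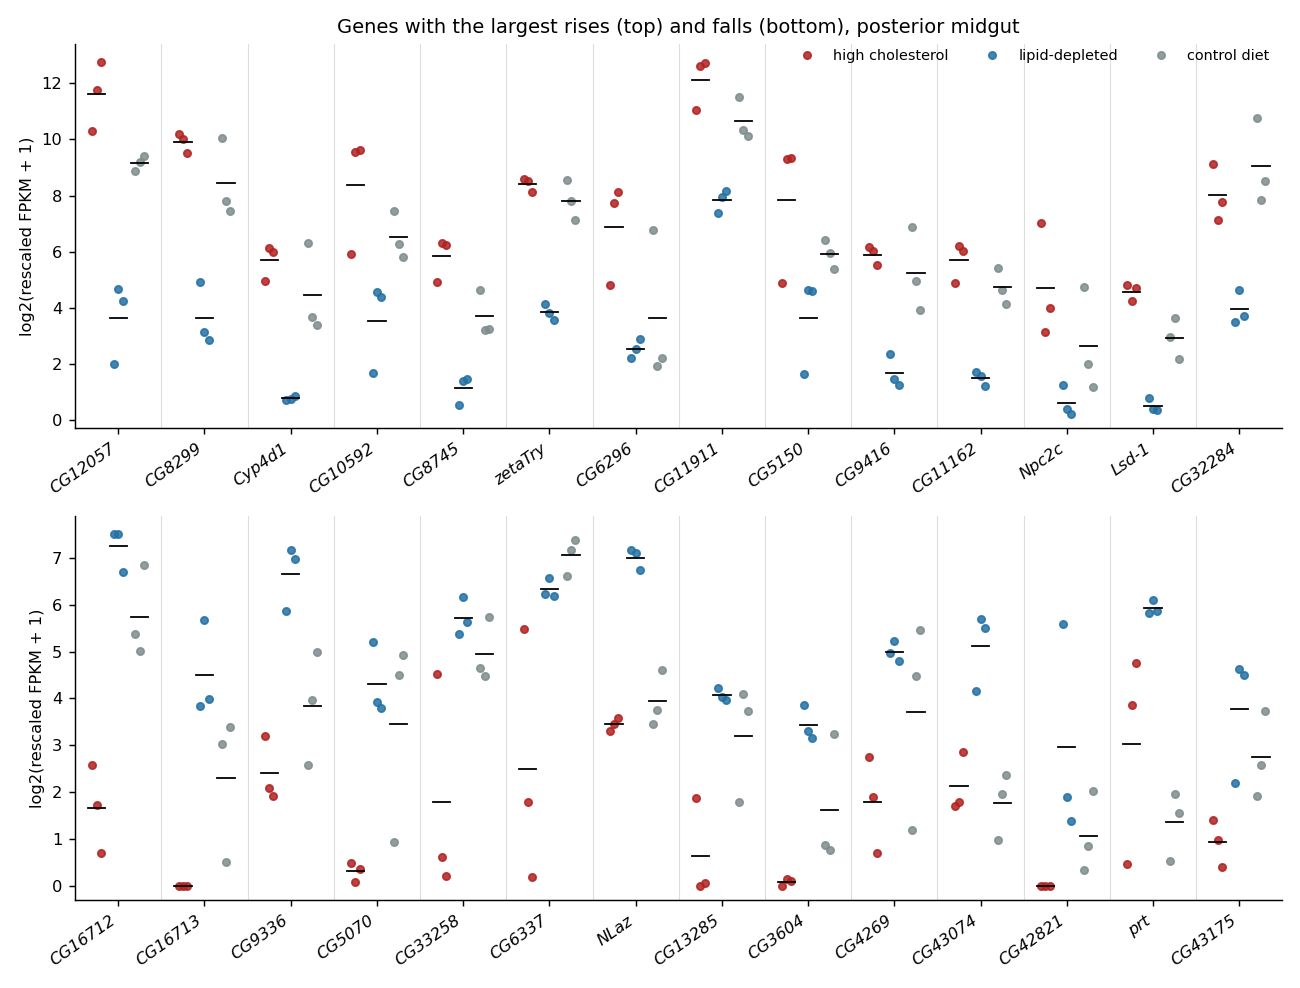
Levels of the 14 genes with the largest rises (top) and the 14 with the largest falls (bottom) in each posterior library, as log2(rescaled FPKM + 1). Each point is a library (red, high cholesterol; blue, lipid-depleted; grey, control diet), ordered by replicate number, and each black bar is the mean of 3 libraries. The 28 genes were picked among called genes whose high-cholesterol and lipid-depleted values do not overlap. The control mean lies outside both in CG32284, CG6337, CG43074 and prt alone.

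Among 16 sterol transport and handling genes tested, 3 rose and 2 fell by the test (5.53% and 3.67% of all genes tested did). The median difference of 0.17 turned to -0.20 with FPKM as deposited and -0.22 with quantile normalization. CG8112, the gene annotated as the fly sterol O-acyltransferase, which esterifies cholesterol, had 143, 78.0 and 60.3 rescaled FPKM on high cholesterol and 8.52, 5.85 and 6.98 on the lipid-depleted diet (3.46 ± 0.40, SE, adjusted p = 1.12e-05). All 3 high-cholesterol libraries were far above the lipid-depleted ones, and the call was kept in every alternative run. Npc2c, of the secreted sterol-binding NPC2 family, had 128, 7.90 and 14.7 against 1.40, 0.307 and 0.154 (4.10 ± 0.92, SE, adjusted p = 0.00617). Most of that level was in high-cholesterol replicate 1, and the difference was 2.95 without it (adjusted p = 0.038) and 4.88 without replicate 2. The Npc2c call was lost with only the 6 compared libraries (adjusted p = 0.074) or only the posterior libraries (0.0701) in the fit. Npc2b, of the same family, moved the other way, at 21.4, 13.8 and 9.66 on high cholesterol and 37.5, 32.8 and 32.1 on the lipid-depleted diet (-1.20 ± 0.20, SE, adjusted p = 3.90e-04). It was not called with only the 6 compared libraries in the fit (adjusted p = 0.0621). Npc1a, the late endosomal sterol transporter, also fell, by 0.76 on the log2 scale (adjusted p = 0.0296), and Osbp, an oxysterol-binding protein, rose by 0.48 (adjusted p = 0.0125). The Osbp call was lost under both other scalings and without lipid-depleted replicate 2 or high-cholesterol replicate 3 (adjusted p = 0.0986 and 0.0682). Npc1b, the transporter needed for sterol absorption in the midgut, had 349, 1126 and 1374 on high cholesterol and 639.8, 1083 and 821 on the lipid-depleted diet and was not called (-0.03 ± 0.45, SE, adjusted p = 0.987). The list held 5 higher calls without high-cholesterol replicate 1, and 1 lower call without any 1 of lipid-depleted replicates 2 and 3 and high-cholesterol replicates 2 and 3. Exons of CG8112, Npc2c and Osbp overlap genes on the other strand.

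Hr96 itself did not differ beyond its spread. It had 68.9, 127 and 143 rescaled FPKM on high cholesterol and 120.5, 96.1 and 111 on the lipid-depleted diet (-0.01 ± 0.24, SE, adjusted p = 0.988), and the groups overlapped. High-cholesterol replicate 1 was below all lipid-depleted libraries and replicates 2 and 3 were above all of them, and without replicate 1 the difference was 0.30 (adjusted p = 0.468).

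Lipase genes split in direction. Of 15 acid and pancreatic-type lipases tested, 3 were called higher and 2 lower (5.53% and 3.67% of all genes tested were), with a median of -0.03. CG2772 had 145, 359 and 308 rescaled FPKM on high cholesterol and 14.8, 17.9 and 16.6 on the lipid-depleted diet (3.86 ± 0.52, SE, adjusted p = 4.09e-05), and CG3635 had 34.2, 47.3 and 32.4 against 10.2, 14.2 and 10.8 (1.61 ± 0.36, SE, adjusted p = 0.00597). Both kept their calls without any 1 library. CG6296 had 27.3, 209.8 and 276 against 3.66, 4.78 and 6.31 (4.34 ± 1.32, SE, adjusted p = 0.0391), with high-cholesterol replicate 1 much the lowest of its group. That call was lost without any 1 of 5 libraries, all but high-cholesterol replicate 1, with adjusted p up to 0.166, and the difference was 5.38 without high-cholesterol replicate 1 and 3.73 without replicate 3. CG6271 and CG17191, of the same cluster of lipase genes on 3R as CG6296, fell to 6.58, 3.06 and 6.67 and 2.37, 0.801 and 1.5 on high cholesterol, against 33.8, 45.8 and 42.6 and 9.24, 14.1 and 9.09 on the lipid-depleted diet. The differences were -2.74 ± 0.64 and -2.23 ± 0.59 (SE), and without high-cholesterol replicate 2 neither was called (adjusted p = 0.0556 and 0.0991). CG17191 was also not called without lipid-depleted replicate 2 or high-cholesterol replicate 3 (adjusted p = 0.0851 and 0.0607). The magro gene (mag), a lipase that releases dietary sterol and fatty acids, had a difference of 1.89 that was not called (adjusted p = 0.133). The list held 6 higher calls without high-cholesterol replicate 1, 0 lower calls without replicate 2, and 1 lower call without high-cholesterol replicate 3 or lipid-depleted replicate 2.

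Of 12 genes of triglyceride storage tested, 5 were called, all higher (5.53% of all genes tested were). Of the 12, 10 had a difference above 0, 8 had all high-cholesterol libraries above all lipid-depleted ones (15.5% of all genes tested did), and the median difference was 0.76. Without rescaling, 4 of these genes passed as higher and 1 as lower, 8 were above 0 and the median was 0.38. Lsd-1, the fly perilipin 1 that coats lipid droplets, had 26.8, 17.8 and 25.0 rescaled FPKM on high cholesterol and 0.717, 0.321 and 0.271 on the lipid-depleted diet (4.07 ± 0.57, SE, adjusted p = 7.86e-05). Its lipid-depleted libraries were all under 1 and its high-cholesterol libraries all above 17. Lpin, a phosphatidate phosphatase, had 174, 155 and 170.2 against 80.1, 63.7 and 85.2 (1.12 ± 0.17, SE, adjusted p = 1.37e-04), and CG3209, a glycerol-3-phosphate acyltransferase, had 278, 244 and 171 against 97.2, 101 and 88.3 (1.24 ± 0.21, SE, adjusted p = 5.07e-04). Seipin, which shapes lipid droplets, had 53.9, 59.8 and 88.4 against 22.6, 16 and 13.9 (1.88 ± 0.45, SE, adjusted p = 0.00938), and its call was lost without lipid-depleted replicate 3 or high-cholesterol replicate 3 (adjusted p = 0.0502 and 0.0575). The mitochondrial glycerol-3-phosphate acyltransferase mino rose by 0.68 (adjusted p = 0.0278). The triglyceride lipase bmm (0.84), the acyltransferase mdy (0.14) and the perilipin Lsd-2 (0.24) were not called. The list held 3 calls without lipid-depleted replicate 3 or without high-cholesterol replicate 3. Lsd-1, Lpin and Seipin share exon sequence with neighbouring genes.

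Of 23 beta-oxidation genes tested, which break down fatty acids, 10 were called, all higher (5.53% of all genes tested were). Of the 23, 20 had a difference above 0 (53.5% of all genes tested did), and the median was 0.54. Without rescaling, 6 passed as higher, 17 were above 0 and the median was 0.16. The peroxisomal acyl-CoA oxidases Acox57D-p and Acox57D-d, neighbours on 2R, had 105, 158 and 138 and 62.0, 76.8 and 59.4 rescaled FPKM on high cholesterol, against 52.8, 55.1 and 42.7 and 21.7, 18.3 and 17.9 on the lipid-depleted diet. Their differences were 1.38 ± 0.24 and 1.72 ± 0.30 (SE, adjusted p = 7.77e-04 and 7.99e-04). The acyl-CoA dehydrogenase CG3902 had 96.4, 217 and 156 against 40.6, 48.4 and 52.8 (1.64 ± 0.33, SE, adjusted p = 0.00258), with the smallest gap between diets in replicate 1. The mitochondrial carnitine carrier colt had 67.5, 86.7 and 77.5 against 41.7, 33.4 and 34.4 (1.06 ± 0.22, SE, adjusted p = 0.00304). Each of these 4 kept its call without any 1 library, while the list held 5 calls without high-cholesterol replicate 2. The oxidases CG9527 (1.41) and CG5009 (1.53), the hydratase CG6543 (0.98), the thiolase yip2 (0.61), Etf-QO (0.54) and CG2107 (0.56) were the other members called.

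Fatty acid synthesis and uptake genes moved less evenly. Of 15 genes of fatty acid synthesis and the SREBP pathway, 2 were called, both higher (5.53% of all genes tested were). The median of 0.27 turned to -0.12 with FPKM as deposited, where 2 further members were called lower. Desat1, the stearoyl-CoA desaturase, had 366, 613 and 675 rescaled FPKM on high cholesterol and 197, 273 and 264 on the lipid-depleted diet (1.13 ± 0.24, SE, adjusted p = 0.00407), and was not called with quantile normalization (0.64, adjusted p = 0.0935). The very-long-chain acyl-CoA synthetase bgm (bubblegum) had 69.6, 68.5 and 51.1 against 11.1, 13.9 and 13.9 (2.19 ± 0.55, SE, adjusted p = 0.0137), and was not called without high-cholesterol replicate 2 (adjusted p = 0.0605). Of 8 CD36-like scavenger receptors, a family that takes up lipids and carotenoids, 3 were called, all higher (5.53% of all genes tested were), with a median of 0.87. CG7227 had 7.45, 20.6 and 13.2 against 3.92, 4.26 and 3.70 (1.47 ± 0.30, SE, adjusted p = 0.00319), CG3829 had 4.57, 9.83 and 9.51 against 1.20, 2.16 and 2.00 (1.64 ± 0.34, SE, adjusted p = 0.00319), and santa-maria had 26.8, 48.0 and 31.2 against 12.4, 16.6 and 13.7 (1.22 ± 0.30, SE, adjusted p = 0.0109). No library of either diet crossed into the other's range in these genes, though santa-maria was not called without high-cholesterol replicate 2 (adjusted p = 0.0896). CG7227 was not called with only the 6 compared libraries in the fit (adjusted p = 0.0626). CG5804, an acyl-CoA binding protein and the most abundant gene named here, had 20936, 36583 and 34439 against 18790.3, 9623 and 10545 (1.26 ± 0.39, SE, adjusted p = 0.0444). Replicate 1 of the 2 diets lay closest together. The call was lost with FPKM as deposited (adjusted p = 0.172), with quantile normalization, where the difference was 0, and without any 1 of lipid-depleted replicates 2 and 3 and high-cholesterol replicates 2 and 3 (up to 0.191).

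Digestive peptidases rose more than they fell. Of 19 trypsins and Jonah proteases tested, 4 rose and 1 fell by the test (5.53% and 3.67% of all genes tested did), with a median difference of 1.63. A further 8 members had a failed estimate in at least 1 library and were not tested. Beside zetaTry, lambdaTry had 1159, 2261 and 2142 rescaled FPKM on high cholesterol and 575, 613 and 531 on the lipid-depleted diet (1.63 ± 0.37, SE, adjusted p = 0.00699). The trypsin etaTry had 492, 512 and 471 against 257, 267 and 191 (1.06 ± 0.25, SE, adjusted p = 0.0101), and lost its call with FPKM as deposited (0.66, adjusted p = 0.0924) and without lipid-depleted replicate 3 (adjusted p = 0.0652). Jon66Cii, a Jonah protease, fell to 2.06, 1.32 and 0.896 on high cholesterol, against 15.1, 8.97 and 9.06 (-2.30 ± 0.56, SE, adjusted p = 0.011), and was not called without high-cholesterol replicate 3 (adjusted p = 0.056). These are members of families with close copies, among which the authors' counting could have divided reads. Of 12 carboxypeptidases and astacins tested, 6 were called, all higher (5.53% of all genes tested were), with a median of 1.49. The astacin CG15255 had 1004, 1042 and 1166 against 376, 422 and 322 (1.52 ± 0.32, SE, adjusted p = 0.00363) and the carboxypeptidase-like CG2915 had 52.2, 59.7 and 68.2 against 38.7, 29.1 and 28.9 (0.88 ± 0.17, SE, adjusted p = 0.00227), a call lost with FPKM as deposited (0.50, adjusted p = 0.113). The carboxypeptidase CG7025 had 123, 339 and 313 against 47.2, 58.6 and 41.6, and its call was lost without any 1 library but high-cholesterol replicate 1 (up to 0.142). That list held 3 calls with FPKM as deposited, 4 without high-cholesterol replicate 1, 3 without lipid-depleted replicate 2, and 2 without lipid-depleted replicate 3 or without high-cholesterol replicate 2. Limma called none of 11 amylases and maltases, of which 1 had an unadjusted p under 0.05, and 1 was called higher without high-cholesterol replicate 1. The amylase genes Amy-p and Amy-d had a failed estimate in 1 and 2 anterior libraries and were not tested. Their posterior values were 144, 795 and 908 and 138, 746 and 1015 on high cholesterol, against 143, 133 and 188 and 130.2, 138 and 176 on the lipid-depleted diet. High-cholesterol replicate 1 lay within the lipid-depleted range in both, and replicates 2 and 3 lay above it.

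Cytochrome P450s oxidise lipids, hormones and toxins. Of 58 tested, 12 were called higher and 2 lower (5.53% and 3.67% of all genes tested were). Of the 58, 26 had all high-cholesterol libraries above all lipid-depleted ones (15.5% of all genes tested did), and the median was 0.57. On the deposited scale 8 of the P450s passed as higher and 5 as lower, with a median of 0.22. Beside Cyp4d1, Cyp311a1 had 15.7, 40.8 and 37.5 rescaled FPKM on high cholesterol and 2.29, 2.40 and 2.26 on the lipid-depleted diet (3.17 ± 0.52, SE, adjusted p = 4.25e-04), and Cyp4ad1 had 86.9, 76.8 and 54.4 against 12.1, 6.09 and 5.37 (3.11 ± 0.52, SE, adjusted p = 4.30e-04). Cyp4e3 fell to 1.83, 1.97 and 2.53 on high cholesterol, against 20.4, 23.0 and 18.7 on the lipid-depleted diet (-2.80 ± 0.35, SE, adjusted p = 2.57e-05), and its 3 libraries of each diet lay close together. The family held 19 higher calls without high-cholesterol replicate 1, 5 without high-cholesterol replicate 2 and 7 without high-cholesterol replicate 3. Of 30 glutathione S-transferases, 2 were called higher and 2 lower (5.53% and 3.67% of all genes tested were). The median of 0.02 turned to -0.36 with FPKM as deposited and -0.13 with quantile normalization. GstE5 had 106, 136 and 127 against 54.0, 48.7 and 38.0 (1.38 ± 0.23, SE, adjusted p = 4.33e-04) and GstS1 had 53.4, 65.0 and 55.5 against 24.2, 22.7 and 28.2 (1.18 ± 0.22, SE, adjusted p = 0.00124). GstD3 and GstD8 fell to 5.78, 6.25 and 8.89 and 27.1, 22.0 and 16.3 on high cholesterol, against 42.3, 17.4 and 19.4 and 68.7, 88.4 and 85.1. The GstD3 call was lost without lipid-depleted replicate 1 or high-cholesterol replicate 2, and the GstD8 call without lipid-depleted replicate 2 or 3 or high-cholesterol replicate 2 or 3 (adjusted p up to 0.059 and 0.0841).

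**Figure D3:**
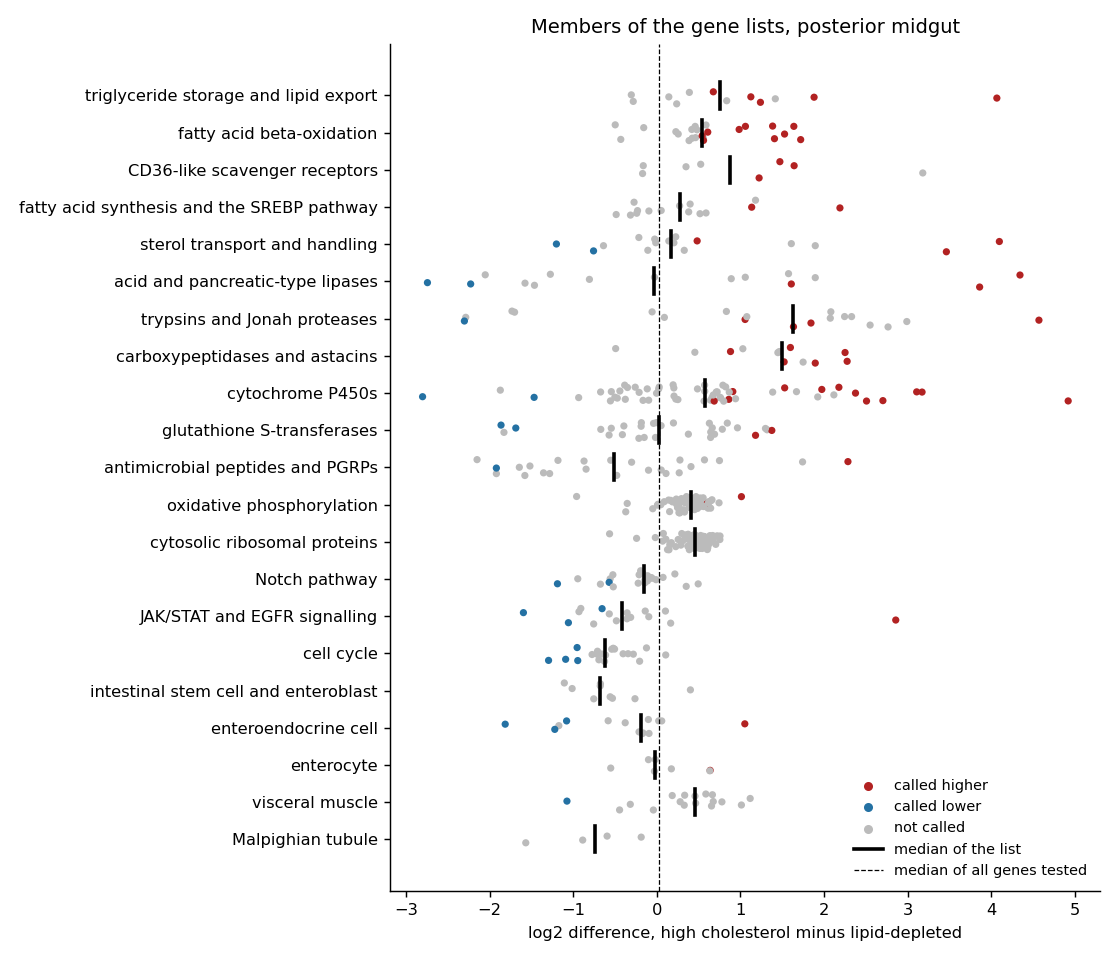
Log2 difference, high cholesterol minus lipid-depleted, of each tested member of 21 of the gene lists (one point a gene; red, called higher; blue, called lower; grey, not called). Short black bars are list medians and the dashed line is the median of all genes tested at 0.03. The medians of triglyceride storage, beta-oxidation and the peptidases lie at 0.54 to 1.63, and those of the cell cycle and stem cell lists at -0.62 and -0.67. With FPKM as deposited the medians of the sterol, fatty acid synthesis and glutathione S-transferase lists turn to -0.20, -0.12 and -0.36, and with quantile normalization that of the ribosomal proteins turns to -0.08.

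Notch signalling under dietary lipids is named in the study's title. Of 22 Notch pathway genes tested, 2 were called, both lower, and 18 had a difference below 0, against 3828 of all 8335 genes tested. The share called was close to the 9.2% of all genes called in either direction, while 3.67% of all genes were called lower. The median was -0.16, or -0.54 with FPKM as deposited, where 4 members were called lower. The gene fng (fringe), a glycosyltransferase that modifies Notch and sets which ligands it answers, had 2.50, 3.13 and 4.41 rescaled FPKM on high cholesterol and 7.92, 9.0 and 9.37 on the lipid-depleted diet (-1.19 ± 0.19, SE, adjusted p = 2.99e-04). All high-cholesterol libraries were below all lipid-depleted libraries, and the call held in every alternative run. Exons of fng overlap CG10589 on the other strand. The gamma-secretase subunit aph-1 had 39.4, 36.8 and 36.4 against 65.1, 55.3 and 49.4 (-0.57 ± 0.16, SE, adjusted p = 0.0287), and was not called without lipid-depleted replicates 1 or 2 or high-cholesterol replicates 2 or 3 (adjusted p = 0.101, 0.0747, 0.1 and 0.094). The ligand Delta (Dl) had 2.40, 1.72 and 1.71 against 2.32, 4.83 and 4.26 (-0.67 ± 0.25, SE, adjusted p = 0.0964), and the Notch-cleaving protease kuz had 1.95, 1.1 and 1.82 against 1.84, 5.75 and 5.66 (-0.95 ± 0.34, SE, adjusted p = 0.0837). In both, lipid-depleted replicate 1 lay within the high-cholesterol range, and without it both were called (adjusted p = 0.0294 and 0.0144). The list then held 4 lower calls, against 1 without lipid-depleted replicate 2 or without high-cholesterol replicate 2 or 3.

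In the EGFR pathway 3 members fell and 1 rose, where 3.67% and 5.53% of all genes tested were called lower and higher. Of 16 JAK/STAT and EGFR genes tested, 13 had a difference below 0, with a median of -0.42. Mkp3, the phosphatase that dampens ERK signalling and is itself induced by it, had 9.30, 6.20 and 8.69 rescaled FPKM on high cholesterol and 14.9, 18.3 and 20 on the lipid-depleted diet (-1.06 ± 0.20, SE, adjusted p = 0.00114). The ligand spi (spitz) had 24.9, 20.5 and 21.7 against 41.9, 31.8 and 34.1 (-0.66 ± 0.16, SE, adjusted p = 0.0134), and rho (rhomboid), the protease that releases it, had 6.07, 1.95 and 2.88 against 9.33, 13.4 and 14.1 (-1.60 ± 0.50, SE, adjusted p = 0.0487). The EGFR inhibitor kek1 went the other way, at 4.91, 21.8 and 35.2 against 0.369, 2.19 and 1.93 (2.86 ± 0.51, SE, adjusted p = 9.06e-04), with high-cholesterol replicate 1 nearest to the lipid-depleted libraries. Without that library its difference was 3.62. The kek1 call was lost with only the 6 compared libraries in the fit (adjusted p = 0.0803). Leaving out lipid-depleted replicate 1, high-cholesterol replicate 2 or high-cholesterol replicate 3 left 1 lower call in the list. The spi call was then lost (adjusted p = 0.0601, 0.0734 and 0.0538), and that of rho was lost without any library except high-cholesterol replicate 1 (up to 0.219).

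Insulin and ecdysone pathway genes had a few calls. Of 16 insulin and TOR signalling genes tested, 1 was called higher and 2 lower (5.53% and 3.67% of all genes tested were), with a median of -0.04. The insulin receptor InR had 3.10, 1.80 and 1.87 rescaled FPKM on high cholesterol and 3.35, 11.2 and 12.2 on the lipid-depleted diet, and its kinase Akt1 had 22.0, 18.0 and 19.9 against 28.3, 52.8 and 49.6. The differences were -1.47 ± 0.41 and -1.04 ± 0.29 (SE, adjusted p = 0.0241 and 0.0227), and in both genes lipid-depleted replicate 1 was the lowest of its group. Sesn, a stress-induced inhibitor of TOR, had 54.9, 89.6 and 96.4 against 30.7, 32.3 and 37.5 (1.20 ± 0.33, SE, adjusted p = 0.0227). No call among these 3 held without lipid-depleted replicate 2 or 3 or high-cholesterol replicate 2 or 3, where adjusted p reached 0.138, 0.125 and 0.11, and Sesn was also not called without lipid-depleted replicate 1 (adjusted p = 0.0584). Of 8 ecdysone signalling genes 2 were called, both lower (3.67% of all genes tested were). The nuclear receptor Eip78C had 1.38, 0.986 and 1.31 against 2.68, 4.57 and 4.03 (-1.08 ± 0.23, SE, adjusted p = 0.00439), and held without any 1 library, while the transcription factor Eip74EF (-0.81 ± 0.21, SE, adjusted p = 0.0171) did not hold without lipid-depleted replicate 2 or 3 or high-cholesterol replicate 2 or 3 (up to 0.0948).

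Of 20 cell cycle genes tested, 4 were called, all lower (3.67% of all genes tested were). Of the 20, 19 had a difference below 0, 16 had all high-cholesterol libraries below all lipid-depleted ones (11.7% of all genes tested did), and the median was -0.62. Without rescaling, 8 passed as lower, with a median of -0.97, and a fit on posterior libraries only called 7. Cdk1, the mitotic kinase, had 2.69, 1.86 and 1.25 rescaled FPKM on high cholesterol and 6.61, 6.39 and 5.24 on the lipid-depleted diet (-1.30 ± 0.32, SE, adjusted p = 0.0118), and its cyclin CycA had 4.15, 2.50 and 2.66 against 6.85, 6.91 and 6.73 (-0.95 ± 0.27, SE, adjusted p = 0.0259). The mitotic kinase polo had 3.31, 1.97 and 1.27 against 6.03, 5.01 and 5.64 and the kinase subunit Cks30A had 1.51, 0.840 and 0.610 against 4.13, 2.30 and 2.14. The Cks30A call was lost with quantile normalization (adjusted p = 0.0686). In each of the 4 the groups did not overlap, and high-cholesterol replicate 1 was the library nearest to the lipid-depleted ones. None of these calls held throughout: without high-cholesterol replicate 3 the list had 0 lower calls (adjusted p = 0.0742 for Cdk1, 0.102 for CycA, 0.168 for polo and 0.148 for Cks30A). It had 1 without lipid-depleted replicate 2 or high-cholesterol replicate 2, and 2 without lipid-depleted replicate 1 or 3.

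Markers of intestinal stem cells and enteroblasts had differences mostly below 0, and whether any was called depended on the settings. Limma called none of 9 tested, 6 had an unadjusted p under 0.05, 8 had a difference below 0, and the median was -0.67. Without rescaling, 4 passed as lower (Sox21a, Sox100B, Dl and hdc), and 1 did so after quantile normalization and 2 in the fit blocked on replicate number. The progenitor factors Sox21a and Sox100B had 14.5, 9.36 and 11.8 and 9.52, 10.6 and 12.9 rescaled FPKM on high cholesterol, against 17.7, 33.1 and 31.3 and 17.4, 18.8 and 21.4 on the lipid-depleted diet, with adjusted p of 0.0644 and 0.072. Without lipid-depleted replicate 1 the list had 5 lower calls, Sox21a among them (adjusted p = 0.0352). Summed over the 11 markers, the level was 44.7, 48.9 and 65.4 on high cholesterol and 66.2, 98.9 and 106 on the lipid-depleted diet. In pooled tissue, fewer cells of a type and less RNA per cell cannot be told apart. Among 14 enteroendocrine genes 1 was called higher and 3 lower (5.53% and 3.67% of all genes tested were), with a median of -0.19. The proneural gene sc (scute) had 1.28, 0.637 and 0.259 against 2.83, 2.47 and 2.35 (-1.08 ± 0.23, SE, adjusted p = 0.00349) and held without any 1 library. The peptide hormone genes CCHa1 (34.4, 20.3 and 22.7 against 48.0, 66.7 and 67.3) and CG13565, which encodes Orcokinin (3.48, 7.34 and 4.29 against 6.56, 33.4 and 32.0), fell, and the tachykinin gene Tk (38.1, 36.3 and 33.4 against 13.3, 17.6 and 20.2) rose. The Tk call was lost with FPKM as deposited (adjusted p = 0.11) and without any 1 of the 6 libraries (up to 0.107), that of CCHa1 without lipid-depleted replicate 2 or 3 or high-cholesterol replicate 2 or 3 (up to 0.086), and that of CG13565, whose groups overlapped, without lipid-depleted replicate 2 or 3 or high-cholesterol replicate 1 or 3 (up to 0.169).

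**Figure D4:**
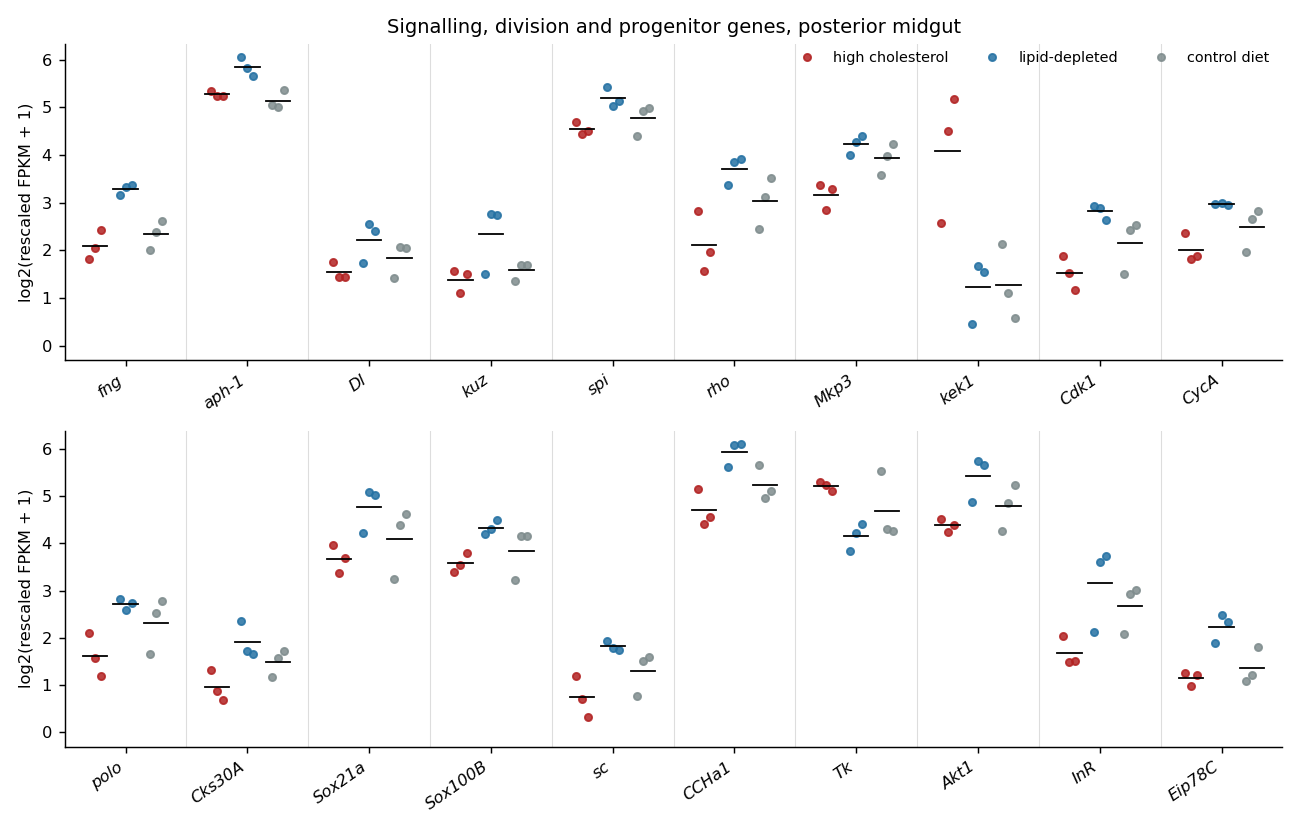
Levels of 20 genes of Notch, EGFR, insulin and ecdysone signalling, the cell cycle, progenitor cells and enteroendocrine cells in each posterior library, as log2(rescaled FPKM + 1). Points are libraries (red, high cholesterol; blue, lipid-depleted; grey, control diet) in replicate order and bars are means of 3. Most genes lie lower on high cholesterol, kek1 and Tk lie higher, and lipid-depleted replicate 1 is the library nearest to the high-cholesterol ones in Dl, kuz, Sox21a, Akt1 and InR.

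Other lists held a few calls each, where 9.2% of all genes tested were called. The peptidoglycan recognition gene PGRP-SC2, an amidase that degrades bacterial peptidoglycan, had 718, 1214 and 885 rescaled FPKM on high cholesterol and 274, 150.1 and 159.9 on the lipid-depleted diet (2.29 ± 0.45, SE, adjusted p = 0.00194), and was the only member called higher of 24 antimicrobial peptide and peptidoglycan recognition genes, which held 2 such calls without lipid-depleted replicate 1 and 3 without high-cholesterol replicate 1. The drosomycin-like gene Drsl2 had 3.98, 6.51 and 7.21 against 11.0, 48.5 and 27.0 (-1.92 ± 0.46, SE, adjusted p = 0.0103), was the only one called lower, and was not called without lipid-depleted replicate 2 (adjusted p = 0.0872). Of these 24 genes, 15 had a difference below 0, with a median of -0.52. All high-cholesterol libraries lay below all lipid-depleted ones in 9 (11.7% of all genes tested) and above them in 1 (15.5%). With only the 6 compared libraries in the fit the list held 5 lower calls, and with only the posterior libraries 3. Of 13 metal genes, the copper importer Ctr1B had 1067, 2245 and 2174 against 396, 449 and 518 (1.94 ± 0.44, SE, adjusted p = 0.00639). It was not called with only the posterior libraries in the fit (adjusted p = 0.0514). The metallothionein MtnC had 685, 1555 and 2719.8 against 206, 95.2 and 64.3 (3.71 ± 0.91, SE, adjusted p = 0.0115), a call lost without lipid-depleted replicate 3 or high-cholesterol replicate 3 (adjusted p = 0.0626 and 0.0713). In dopamine metabolism the tyrosine hydroxylase gene ple had 3.23, 13.5 and 14.9 on high cholesterol and 41.0, 49.2 and 52.6 on the lipid-depleted diet (-2.29 ± 0.46, SE, adjusted p = 0.0028), and Dat, the dopamine N-acetyltransferase, had 124, 242 and 255 against 72.1, 65.5 and 68.9 (1.51 ± 0.33, SE, adjusted p = 0.00557). High-cholesterol replicate 1 was the lowest library of ple, and without it the difference was -1.67. All 3 high-cholesterol libraries of Dat lay above its lipid-depleted ones. In one-carbon metabolism, pug, a folate enzyme, had 28.9, 40.7 and 36.6 against 12.7, 16 and 15.6 (1.20 ± 0.21, SE, adjusted p = 7.68e-04).

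Genes of general metabolism shifted slightly and depended on scaling. Of 68 oxidative phosphorylation genes, 64 had a difference above 0 with a median of 0.41, and of 78 cytosolic ribosomal protein genes 75 did with a median of 0.46, but with quantile normalization the medians were 0.03 and -0.08, and 41 and 27 genes were above 0. Limma called 2 of these oxidative phosphorylation genes higher, where 5.53% of all genes tested were. It called 0 under either other scaling, 11 without lipid-depleted replicate 1, 1 without high-cholesterol replicate 2, and 0 without lipid-depleted replicate 2 or 3 or high-cholesterol replicate 1 or 3. It called 0 ribosomal protein genes, of which 20 had an unadjusted p under 0.05, or 4 without lipid-depleted replicate 1. Limma called 0 of 16 glycolysis, 31 proteasome, 22 vacuolar ATPase, 14 heat shock and 13 junction genes, and 2, 2, 1, 0 and 3 of them had an unadjusted p under 0.05. Without high-cholesterol replicate 1 limma called 1 vacuolar ATPase gene higher. All 13 junction genes had a difference below 0, with a median of -0.29, and 2 were called without high-cholesterol replicate 1.

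Single members were called in lists of cell identity and secretion, where 9.2% of all genes tested were called. The brush border myosin Myo61F had 669, 757 and 811 rescaled FPKM on high cholesterol and 472, 450.5 and 512 on the lipid-depleted diet (0.64 ± 0.14, SE, adjusted p = 0.00675), without overlap, and was the only one called of 7 enterocyte markers, of which 2 were called higher without high-cholesterol replicate 1. Its call held without any 1 library and was lost under both other scalings (adjusted p = 0.395 and 0.711). The transcription factor bab2 had 15.1, 14.8 and 10.7 against 4.63, 5.22 and 6.38 (1.17 ± 0.30, SE, adjusted p = 0.0141) and was the only one called of 7 regional transcription factors, against 2 without high-cholesterol replicate 1. That call was lost with FPKM as deposited (adjusted p = 0.0793) and without lipid-depleted replicate 2 or high-cholesterol replicate 2 (adjusted p = 0.0512 and 0.07). The zinc finger gene bowl, of the hindgut list, was called higher (1.32 ± 0.27, SE, adjusted p = 0.00258), also without any 1 library, while byn, with the lower values on high cholesterol given above, was under the filter on low values and not tested. Of 14 genes of the unfolded protein response, the protein disulfide isomerase Pdi was called higher (0.72, adjusted p = 0.0448), and the call was lost under both other scalings and without any 1 of lipid-depleted replicates 2 and 3 and high-cholesterol replicates 2 and 3 (up to 0.194).

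Markers of neighbouring tissues differed between libraries, and their part in the results was not tested. The 4 Malpighian tubule markers were all below 0 in difference, with 0 called by limma and 1 at an unadjusted p under 0.05, and summed to 13.0, 8.02 and 5.92 on high cholesterol and 13.9, 35.3 and 32.7 on the lipid-depleted diet. Irk2, the most abundant of them, had 6.80, 7.75 and 5.43 on high cholesterol and 12.4, 29.8 and 26.7 on the lipid-depleted diet. Every anterior library of both diets had more Irk2 than any of these posterior libraries, so the sums do not show how much tubule a library held. Uro, another of the 4, overlapped between diets, at 4.92, 0.119 and 0.319 against 0.470, 3.15 and 3.93. In the anterior libraries Uro had 0.0352, 0 and 0.151 on high cholesterol and 0.122, 22.5 and 24.0 on the lipid-depleted diet. These anterior libraries enter the regional difference below, and the part of this unevenness in it was not tested. The copper cell markers of the middle midgut summed to 0.110, 7.28 and 0.126 and 0.768, 10.2 and 9.30. Fat body markers, led by Yp3, summed to 195, 434 and 241 on high cholesterol, 223, 84.2 and 108 on the lipid-depleted diet and 1907, 108 and 164 on the control diet. Of 17 visceral muscle genes 1, Zasp52, was called lower (3.67% of all genes tested were), and the list's median was 0.46. The Zasp52 difference was -1.08 ± 0.32 (SE, adjusted p = 0.0328), a call that held without high-cholesterol replicate 1 alone (up to 0.195). Limma called 0 of 9 ovary and germline genes and 0 of 6 fat body genes, with 0 and 0 at an unadjusted p under 0.05.

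The control mean lay between the high-cholesterol and lipid-depleted means in 630 of the 767 called genes (82.1%), and in 45.7% of all genes tested. Called genes were picked for a wide gap between these means, which a control mean falls into more often, so the shares are not comparable. The control mean lay nearer to the high-cholesterol mean in 496 of the called genes (64.7%), against 57.9% of all. The comparisons of each diet with the control share its 3 libraries and are not independent. By limma, high cholesterol minus control gave 73 calls (0.876%), 46 higher and 27 lower, and lipid-depleted minus control gave 319 (3.83%), 116 higher (1.39%) and 203 lower (2.44%). The first count was 249 without high-cholesterol replicate 1, which lay near the control libraries, and 16 or 15 without high-cholesterol replicate 2 or 3. The second was 179 or 178 without lipid-depleted replicate 2 or 3. The sterol acyltransferase CG8112 had 143, 78.0 and 60.3 rescaled FPKM on high cholesterol, 8.52, 5.85 and 6.98 on the lipid-depleted diet and 147, 65.0 and 48.3 on the control diet, so that the control range overlapped that of high cholesterol. NLaz and Cyp4e3 had 9.94, 12.6 and 23.2 and 0.908, 1.89 and 2.50 on the control diet, close to their high-cholesterol levels of 8.83, 10.1 and 11.0 and 1.83, 1.97 and 2.53. CG9416, CG10051 and Lpin had 116, 29.7 and 14, 99.3, 43.3 and 24.6 and 150.5, 121 and 92.7 on the control diet. Ctr1B differed from this order, with 41.6, 44.2 and 27.5 on the control diet, below every library of both other diets, and the control means of ple (1.17, 1.85 and 1.17) and prt (0.460, 2.93 and 1.97) were also below both. CG6337, at 97.2, 141 and 164 on the control diet, lay above both. Sesn had 39.9, 19.3 and 17.3 on the control diet, all below the high-cholesterol libraries and spanning the lipid-depleted range.

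The same diet comparison in the anterior midgut, from 6 other libraries, called 516 genes (6.19%), 270 higher and 246 lower. With FPKM as deposited, which shifted the anterior median of all genes to -0.57, the anterior calls were 3737, 106 higher and 3631 lower, and with quantile normalization they were 487, 233 higher and 254 lower. Of the 516, 241 were also called in the posterior midgut, which is 31.4% of the posterior and 46.7% of the anterior calls, and 237 of the 241 moved the same way, 126 higher and 111 lower. The difference between the regional contrasts was tested directly and was called for 69 genes (0.828%), 46 higher (0.552%) and 23 lower (0.276%) in the posterior, or 64 and 15 with FPKM as deposited. That count ran from 42 without posterior lipid-depleted replicate 3 to 73 without posterior high-cholesterol replicate 1, and was 45 without high-cholesterol replicate 2. In 20 of the 69 genes both anterior means were under 1 rescaled FPKM, against 57 of the 767 posterior calls and 357 of all 8335 genes tested (4.28%). These 20 genes were near 0 in the anterior midgut on both diets. Among them were the 3 genes with the smallest adjusted p, CG43208, CG10051 and wntD.

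CG43208, a short gene on 3R (13303426 to 13303856) that lies in an intron of CG32473 on the same strand, had 37.9, 34.9 and 23.7 rescaled FPKM on high cholesterol and 3.00, 1.05 and 1.47 on the lipid-depleted diet in the posterior midgut, against 0, 0 and 0 and 0, 0 and 0.195 in the anterior (regional difference 3.66 ± 0.40, SE, adjusted p = 3.95e-05). The nearby gene wntD, a Wnt-family inhibitor of Dorsal signalling, had 8.56, 4.56 and 4.45 and 0.392, 0.333 and 0.320 in the posterior and no more than 0.204 in any anterior library (2.29 ± 0.32, SE, adjusted p = 7.69e-04). CG10051, a predicted aminopeptidase that overlaps CG9416, had 58.3, 58.9 and 39.4 and 5.53, 4.08 and 3.08 in the posterior (3.68 ± 0.49, SE, adjusted p = 5.97e-04). The retinoid-binding gene pinta was measured in both regions, at 54.6, 78.3 and 70.5 and 20.4, 19.9 and 23.2 in the posterior and 3.68, 4.54 and 5.0 and 3.80, 6.84 and 7.53 in the anterior (1.97 ± 0.31, SE, adjusted p = 0.00245). It rose on high cholesterol in the posterior and was not called in the anterior (adjusted p = 0.436).

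CG15534, a predicted sphingomyelin phosphodiesterase, moved in opposite directions. In the posterior it had 648, 2336 and 2168 rescaled FPKM on high cholesterol and 237, 253 and 245 on the lipid-depleted diet (2.60 ± 0.56, SE, adjusted p = 0.00479). In the anterior it had 1.11, 6.94 and 2.67 on high cholesterol and 9.84, 30.9 and 31.8 on the lipid-depleted diet (log2 difference -2.51 ± 0.56, SE, adjusted p = 0.00932), and the regional difference was 5.10 ± 0.80, SE, adjusted p = 0.0024. The trypsin lambdaTry did the same, with a posterior difference of 1.63 and an anterior difference of -1.40 (adjusted p = 0.0253), and Tsp42Eg and iotaTry were the other genes called in both regions with opposite signs. NLaz was abundant in the anterior on both diets, at 245, 934 and 1277 on high cholesterol and 779, 492 and 478 on the lipid-depleted diet, where the groups overlapped, with no call there (adjusted p = 0.88), and the regional difference was -3.77 ± 0.74, SE, adjusted p = 0.00948. By contrast fng fell in both regions (-1.19 in the posterior and -1.05 in the anterior), as did CG9336 (-4.26 and -3.30) and ple (-2.29 and -2.06), with regional differences that were not called (adjusted p = 1, 1 and 1). The beta-oxidation list had 10 members called higher in each region, and the triglyceride storage list 5 in the posterior and 4 in the anterior. Of all genes tested, 5.53% were called higher in the posterior and 3.24% in the anterior.

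**Figure D5:**
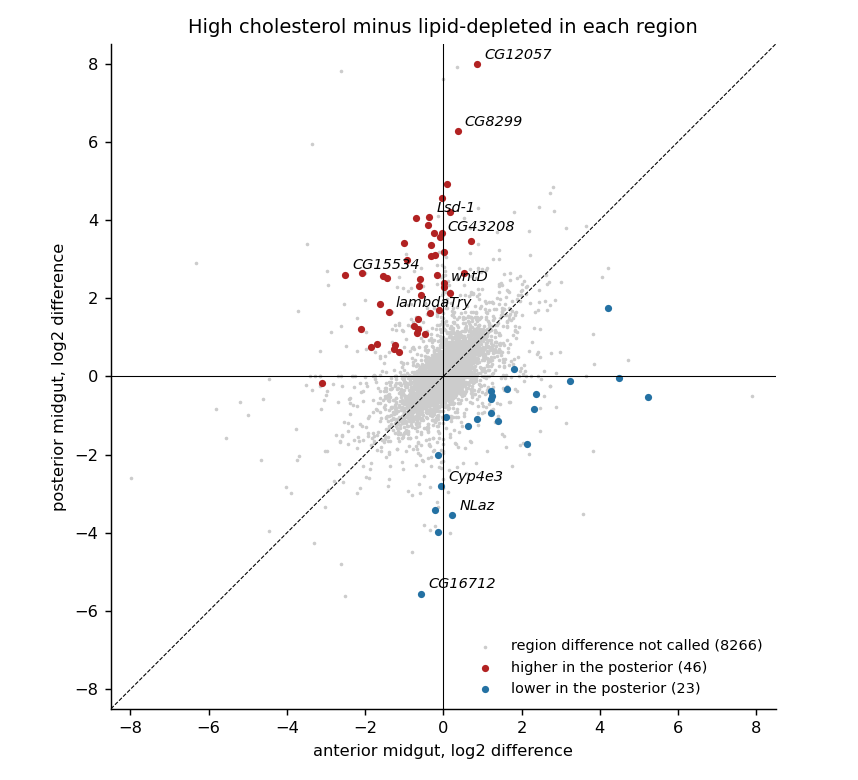
Log2 difference, high cholesterol minus lipid-depleted, in the posterior midgut (vertical axis) against the anterior midgut (horizontal axis) for the 8335 genes tested. Red and blue points are the 46 genes with a higher and the 23 with a lower difference in the posterior, and the dashed line marks equal differences. Many red points lie near 0 on the horizontal axis, and CG15534 and lambdaTry lie in the quadrant of opposite directions.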

How the data were processed

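Gene-level FPKM values of poly(A) RNA from 30 libraries (17488 genes each) are used as the authors deposited them. Per the submitters' processing notes the tools were bcl2fastq 2.17.1.14, TopHat2 2.1.1, Bowtie2 2.2.9 and Cufflinks 2.2.1 with the dm6 build (BDGP6), and the notes used here do not say how multi-mapping reads were treated. FPKM holds no read counts, so no count test and no counting interval was possible, and with 3 libraries a group the spread sets the precision. Genes marked as failed by Cufflinks in at least 1 library, 103 in all, were not analysed. Each library was divided by its median of ratios over the 8584 genes above 0 in all libraries, and 8335 genes with a mean of at least 1 rescaled FPKM were tested on log2(rescaled FPKM + 1) with limma 3.58.1 in R 4.3.3 (10 group means, 20 residual degrees of freedom, a mean-dependent prior, Benjamini-Hochberg adjustment, threshold 0.05), so folds of low genes are understated. The script was tested on simulated data. The regional difference is the posterior minus the anterior diet contrast. Replicate numbers come from the labels, which do not say that a number marks a shared animal or day. Named genes are the 14 largest rises and falls without overlap, up to 4 called members of each of 43 lists (929 of 937 members matched by symbol or alias), the 4 members of smallest adjusted p in the sterol, lipase, Notch, stem cell and enteroendocrine lists, Hr96 and the 8 genes of smallest adjusted p for the regional difference, 108 in all, of which 24 share exon sequence with another gene. Other list members and runs of neighbouring genes were named after their values were seen. The members and lists were chosen with earlier results of these data known. Alternatives covered scaling, pseudocount, filter, libraries in the fit, a replicate block, each library left out, and replicates 2 and 3 averaged. No promoter sequences were used here.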

Additional observations from a re-analysis of the deposited data

Results flagged for a closer look

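Of the genes named here, 25 were marked because limma's test of the difference between regions, posterior minus anterior diet contrast on the log2 scale, gave an adjusted p under 0.05. With 3 libraries a group, no single library was tested for being far from its group.

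The regional difference was above 0 for most of them. Among peptidases it was 5.91 for CG8299, 4.61 for zetaTry, 3.68 for CG10051 and 3.03 for lambdaTry. Among lipid genes it was 5.10 for CG15534, 4.43 for Lsd-1, 4.25 for CG2772, 2.75 for CG8112, 2.12 for CG7227 and 1.88 for santa-maria. Among cytochrome P450s it was 4.83 for Cyp4d1, 3.32 for Cyp4ad1 and 3.17 for Cyp311a1. It was 7.12 for CG12057, 4.75 for CG32284, 4.04 for CG11162, 3.66 for CG43208, 2.29 for wntD, 1.97 for pinta and 1.96 for CG4288. It was below 0 for CG16712 (-4.99), CG5070 (-3.85), NLaz (-3.77), CG13285 (-3.21) and Cyp4e3 (-2.75). Both anterior means were under 1 rescaled FPKM for CG8299, zetaTry, Lsd-1, Cyp4d1, CG11162, CG5070 and CG13285, as for CG43208, CG10051 and wntD. These genes were therefore near 0 in the anterior midgut on both diets. Of the 25, 18 kept an adjusted p under 0.05 in all 6 fits that left out 1 library, and with a pseudocount of 0.1 in place of 1 the call was lost for 10, among them CG12057 (adjusted p = 0.346), CG8299 (0.152) and CG4288 (0.291).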

How the results depend on the processing

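The number of genes called between diets in the posterior was 767, and the fits that left out 1 library each gave 347 (without high-cholesterol replicate 2) to 883 (without high-cholesterol replicate 1). The regional difference had 69 calls, and 42 (without lipid-depleted replicate 3) to 73 (without high-cholesterol replicate 1). With replicates 2 and 3 averaged, which leaves fewer samples, the counts were 113 and 1. Whether replicates 2 and 3 of a group were independent of each other was not tested. The other alternatives gave 546 to 900 calls for the diets and 47 to 84 for the regional difference. The same diet contrast in the anterior gave 516 calls, 3737 with FPKM as deposited, 42 with replicates 2 and 3 averaged and 448 to 602 in the other alternatives. With the replicate number as a block (replicate block) there were 876 and 69 calls, 758 of the 876 shared with the 767. Same-numbered libraries of the 2 diets had correlations of 0.188, 0.0465 and 0.0996 in their deviations from the group means. Replicate 1 of each diet correlated negatively with replicates 2 and 3 of the other (-0.200 to -0.0307). High-cholesterol replicate 3 correlated best with lipid-depleted replicate 2 (0.148), so the number is not shown to pair libraries. Of 102 named genes called between diets, 59 stayed called in all 6 fits without 1 library, 56 in every alternative that kept libraries apart, 30 in every alternative, and 0 reversed. Hr96, which was not called, had a difference of -0.01 that turned to 0.06 without lipid-depleted replicate 1 (adjusted p = 0.921) and 0.30 without high-cholesterol replicate 1 (adjusted p = 0.468), in a range of -0.21 to 0.30 over the fits without 1 library. Over the gene lists, 945 of 1184 counts under an alternative were within 1.5 times the reported count and 239 were not. The cause of these changes was not tested. FPKM gives no depth, so genes near 1 FPKM are the least certain.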

Other observations

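Called genes included runs of neighbours, which were looked for after the values were seen and were given no test. Taking genes in genome order (dm6), 14 runs of 3 or more adjacent tested genes were called in the same direction, 9 higher and 5 lower on high cholesterol, with 53 genes in all. On 3R, from 13287655 to 13312785, the 6 genes CG15887, wntD, CG8773, CG8774, CG32473 and CG43208 were all higher. CG8773, CG8774 and CG32473 encode predicted membrane aminopeptidases of the M1 family. CG8774 had 847, 505 and 377 rescaled FPKM on high cholesterol and 63.9, 71.7 and 64.9 on the lipid-depleted diet (3.01 ± 0.36, SE, adjusted p = 1.74e-05), and CG32473 had 904, 282 and 219.5 against 65.4, 62.7 and 60.4 (2.59 ± 0.45, SE, adjusted p = 6.44e-04). Another 3 genes of that family, CG31343, CG31233 and CG31198, lay side by side on 3R from 21745266 to 21757758 and were also higher, with CG31198 at 4736, 5149 and 4116 on high cholesterol and 1562, 1582 and 1610.3 on the lipid-depleted diet (1.55 ± 0.22, SE, adjusted p = 8.76e-05).

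On 2L, from 3692123 to 3711748, CG16704, CG16713, CG16712, CG3604, CG31777 and cutlet were all lower on high cholesterol, with differences of -5.56 to -0.80. CG16704 had 0.274, 0 and 0 rescaled FPKM on high cholesterol and 6.50, 7.57 and 6.02 on the lipid-depleted diet (-2.82 ± 0.70, SE, adjusted p = 0.0125). On 2R the tetraspanin cluster held 2 runs of lower genes. Tsp42Eg, Tsp42Ei and Tsp42Ej lay from 7028911 to 7042762, and Tsp42El, lbm, Tsp42Ep, Tsp42Eo and the glycosyltransferase gene pgant3 from 7045769 to 7061732. Tsp42Ei had 14.8, 4.07 and 4.11 against 55.7, 55.8 and 42.0 (-2.80 ± 0.35, SE, adjusted p = 2.57e-05) and Tsp42Ep had 5.25, 1.64 and 2.61 against 12.8, 14.5 and 10.8 (-1.80 ± 0.33, SE, adjusted p = 9.88e-04). Neighbouring genes can share reads where their exons overlap, as they do for Tsp42Ep and Tsp42Eo, whose part in these runs was not tested.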
